A study of Homo sapiens with 9 samples.

Results

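The genes described here are the heterogeneous nuclear ribonucleoproteins (hnRNPs) and the SR (serine/arginine-rich) splicing factors, 37 genes chosen by symbol from the 26625 genes in the count tables. They comprise 22 hnRNP genes and 15 SR or SR-like genes, all 37 were present in the tables, and all 37 passed the filter on low counts. For each gene the transcript entry with most reads was kept. The series compared oligo(dT) primers for reverse transcription in CLT-seq, a library protocol that starts from the poly(A) tail of total RNA, and of its 9 libraries 7 had gene counts. HEK293T, a transformed human embryonic kidney line, had 1 library with counts for each of 6 primers, and A549, a human lung carcinoma line, had 1 for T12. The T12 libraries with counts are biological replicate 1 of HEK293T and biological replicate 2 of A549. The other 2 libraries are T12 replicate 2 of HEK293T and T12 replicate 1 of A549, and gene counts of these were not analysed here. The unanchored primers T12, T18 and T30 end in a run of 12, 18 or 30 T. The anchored primers T18V, T18VN and T18VNN carry 18 T followed by 1, 2 or 3 further bases, of which the first (V) is any base but T and the others (N) are any base. The labels name no treatment, so the primer, the cell line and the replicate number of the T12 libraries are the only named differences.

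hnRNPs coat nascent transcripts in the nucleus and take part in splice site choice, export, stability and translation of mRNA, often by blocking the use of an exon. SR proteins bind exonic enhancers through an RNA recognition motif and recruit the spliceosome through a domain rich in arginine and serine, whose phosphorylation by SRPK and CLK kinases sets their location and activity. Many members of both families adjust their own level by splicing a premature stop codon into their own mRNA, which is then degraded by nonsense-mediated decay.

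The compared primers share an adaptor and differ at the 3′ end, where the T run is shown in capitals; T12 and T18 are given as the design text has them, and the anchored primers add V, VN or VNN after the last T of T18.
T12: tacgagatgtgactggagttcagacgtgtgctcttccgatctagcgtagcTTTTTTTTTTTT
T18: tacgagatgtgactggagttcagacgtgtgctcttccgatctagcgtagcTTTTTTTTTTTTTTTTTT

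Because a T run can pair with any run of A, the transcripts of the members were searched for runs of 12 or more A on the sense strand. Of the 37 members, 23 matched a GENCODE release 29 transcript of similar length, and 3 of these (13%) held such a run, against 13.8% of the 8159 matched genes among all genes tested. The 3 runs lie in 3′ UTRs and are shown with the run in capitals, in windows of 30 bases on GRCh38.
HNRNPK, chr9:83968266-83968295, minus strand, 12 A: gtacaattcAAAAAAAAAAAAgatgaaaaa
SRSF7, chr2:38743891-38743920, minus strand, 13 A: ccttggtacAAAAAAAAAAAAAcctgctgg
SRSF8, chr11:95070362-95070391, plus strand, 16 A: tcatctcAAAAAAAAAAAAAAAAgaaaaag
The hexamer AATAAA, the usual polyadenylation signal, stood in the last 40 bases of 16 of the 23 matched members (69.6%), against 63.9% of all matched genes. The ends of HNRNPH1, HNRNPA2B1 and RNPS1 are shown, with the hexamer in capitals, because these were among the members with the largest differences between primer classes.
HNRNPH1, chr5:179614178-179614207, minus strand: gtcaAATAAAtcctccttttaaaaactgca
HNRNPA2B1, chr7:26189927-26189956, minus strand: ccAATAAAatgctgttcattatgcactgta
RNPS1, chr16:2253116-2253145, minus strand: gAATAAAcccaagatcggaatgcaaatcta
A match of letters in these windows is a description and shows no priming site. The kept entries of SRSF1, HNRNPA0 and HNRNPUL1 had no matched transcript, by identifier and length, so none is shown.

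Library depth was 7491993 to 25578543 reads by the library total, of which 1498224 to 5200705 were on genes. The share of reads on genes was 11.68 to 20.33% with unanchored primers in HEK293T, 27.74 to 37.52% with anchored primers and 13.46% in A549. Levels are given as CPM, the count scaled to a common total of reads on genes, and 3 reads were the detection floor (0.577 to 2.00 CPM). Coverage of the transcript body was 3′ weighted in 4 of the 5 HEK293T libraries examined, with 59.2 to 64.7% of the signal in the last 20 of 100 percentiles, whereas the T18VNN library had 39.9% there and 33.7% in the first 20. The cell line markers were chosen with earlier results of these data known, so they are no independent check of the labels. Of 12 A549 markers, 11 were at least 2-fold higher in A549 than in HEK293T T12, and SFTPB had 0 reads in both. All 4 HEK293T markers were at least 2-fold lower, with NEFM, NEFL and LIN28B at 0 reads in A549. Summed fibroblast markers reached 9.49 to 38.7 CPM over the 7 libraries and summed leukocyte markers 0 to 42 CPM. RNA content and cell number cannot be told apart in such bulk libraries.

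The members spanned more than 3 orders of magnitude per transcript length. FPKM, the count divided by transcript length and library total, is the only scale used here to set levels of different genes side by side. The share of that total on genes was higher with anchored primers, which raises FPKM there. FPKM values of the same gene are therefore not compared between primer classes, for which CPM is used below. Where coverage is 3′ weighted, as in most libraries examined, dividing by length can lower long transcripts relative to short ones. How far this shaped the order of the genes was not tested. HNRNPA0, an RNA-binding protein of the A/B family encoded by a gene without introns (chr5:137087073-137090039, hg19), had the highest median over the 6 HEK293T libraries, 747 FPKM, with values of 553, 859 and 636 FPKM in T12, T18 and T30 and 578, 1086 and 1429 FPKM in T18V, T18VN and T18VNN. RNPS1, an SR-related activator of splicing that joins the exon junction complex, followed with a median of 296 FPKM, at 73.2, 174 and 103 FPKM in T12, T18 and T30 and 640, 418 and 546 FPKM in T18V, T18VN and T18VNN. HNRNPUL1, a U-type hnRNP also tied to the DNA damage response, had a median of 209 FPKM, at 203, 195 and 109 FPKM with unanchored and 241, 233 and 215 FPKM with anchored primers in the same order. The FPKM range of RNPS1 overlapped that of HNRNPA0 and that of HNRNPUL1, while HNRNPA0 was above HNRNPUL1 in every library. RNPS1 was below HNRNPUL1 in the 3 unanchored libraries and above it in the 3 anchored ones.

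At the other end, SRSF12, an SR-like protein with a repressive role in splicing, had a median of 0.296 FPKM. It had 1, 41 and 10 reads in the T12, T18 and T30 libraries and 15, 63 and 5 reads in T18V, T18VN and T18VNN, so its T12 level lay below the detection floor. HNRNPLL, a regulator of CD45 splicing in lymphocytes, had a median of 0.370 FPKM and 5 to 85 reads. SRSF10, a splicing repressor active when dephosphorylated, had a median of 0.921 FPKM and 21 to 161 reads. These 3 lowest genes overlapped each other in FPKM and are the members whose levels rest on fewest reads.

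**Figure D1:**
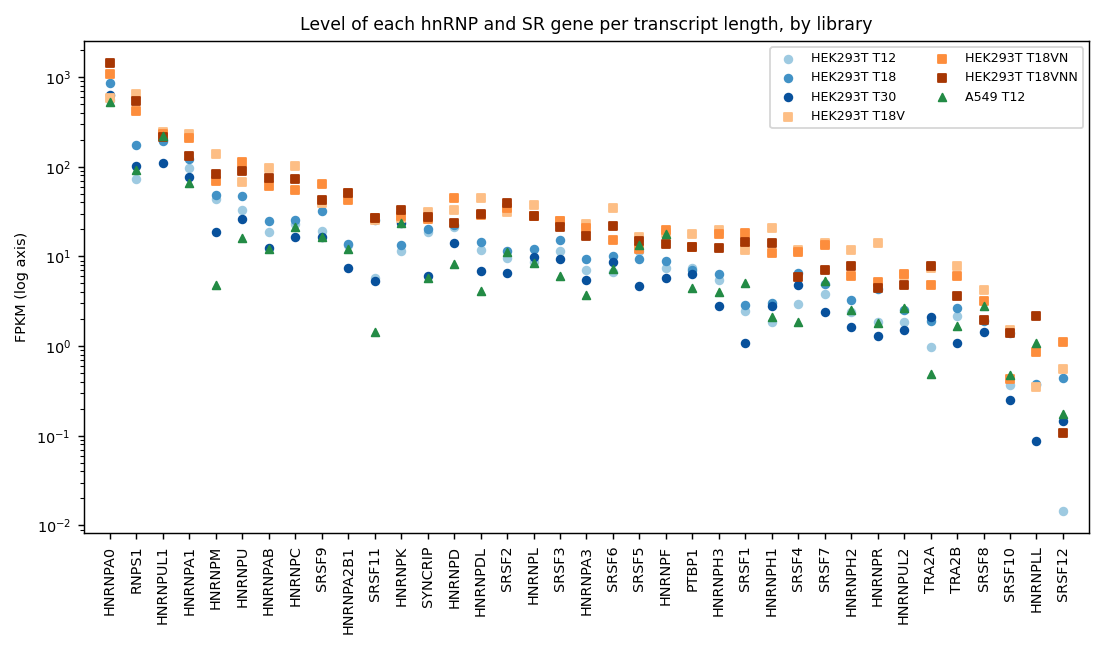
FPKM of the 37 genes (log axis) in 7 libraries, ordered by the median over the 6 HEK293T libraries; circles are unanchored, squares anchored primers and triangles A549. HNRNPA0 is the highest gene by median (747 FPKM) and SRSF12 the lowest (0.296 FPKM).

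Among all genes, HNRNPA0 was also one of the largest single contributors of reads. It took 0.951% of the gene reads in T12, 1.25% in T18, 1.61% in T30, 0.457% in T18V, 1.15% in T18VN, 1.53% in T18VNN and 1.17% in A549 T12, with a 95% Wilson interval of 0.449 to 0.465% in the lowest and 1.60 to 1.63% in the highest library. That placed it between rank 1 (T18VNN) and rank 5 (T12) among all genes in 5 of the HEK293T libraries, at rank 14 in T18V and at rank 3 in A549. Such intervals and floors describe counting error alone, as the reads carry no molecular identifiers.

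The comparison of anchored with unanchored primers asked how much the anchor bases change the measured level of a gene in HEK293T. With 1 library per primer, the 3 primers of a class stood in for replicates, so the p-values measure the spread between primers and not between cultures. In edgeR's quasi-likelihood test 147 of 10887 genes (1.35%) passed an adjusted p of 0.05, 85 of these (0.781%) in favour of anchored and 62 (0.569%) in favour of unanchored primers. That split depended on the setting: it was 2206 higher and 51 lower when counts were scaled to library totals, and 41 and 66 without T12, 39 and 46 without T18, 19 and 35 without T30, 34 and 29 without T18V, 56 and 55 without T18VN and 19 and 27 without T18VNN. Of the 37 members, 1 passed, SRSF1, which was higher. At an unadjusted p under 0.05 the same test gave 9 members, 8 higher and 1 lower, against 15.6% of all genes tested.

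SRSF1, the founding SR protein and a regulator of both constitutive and alternative splicing (chr17:56078280-56084707, hg19, minus strand), stood at 81.5, 79.2 and 51.9 CPM in T12, T18 and T30 and at 178, 363 and 293 CPM in T18V, T18VN and T18VNN. Every anchored library was above every unanchored one, and the lowest anchored value came from T18V. The means were 70.9 ± 16.5 CPM unanchored and 278 ± 93.6 CPM anchored (SD, n = 3 libraries each). In edgeR this gave 1.80 on the log2 scale with an SE of 0.35 and an adjusted p of 0.0351. The edgeR adjusted p was 0.0583 without T12, 0.0961 without T18, 0.114 without T30, 0.101 without T18VN and 0.128 without T18VNN, and 0.0313 without T18V. The call therefore ended when any 1 of 5 of the 6 libraries was left out, while the log2 fold change stayed between 1.56 and 2.00. With T18VNN, the library with the different body coverage, left out it was 1.73; the part of coverage in the SRSF1 result was otherwise not tested.

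Members other than SRSF1 did not pass the test, and the group is described by its counts and median. The median log2 fold change of the 37 members was 0.39 against -0.0017 for all 10887 genes, and 25 of 37 were above 0 against 49.9% of all genes. Class separation was read from CPM, without the further scaling between libraries (TMM) behind the edgeR fold changes, so the 2 can differ in sign. The mean of HNRNPA1 was 1164 CPM unanchored and 1187 CPM anchored, while its log2 fold change was -0.15. Whether narrow separations hold with TMM was not tested. All 3 anchored libraries lay above all 3 unanchored ones for 15 members, where 16.8% of all genes did so, and below for 1 member, HNRNPUL1, where 6.80% did. These counts follow the scaling: with CPM set to the library totals, which differ with the share of reads on genes, the median of all genes moved to 1.08, that of the members to 1.48, all 37 members were above 0 and 20 of them passed in edgeR, as did 2257 of 11244 genes (20.1%).

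**Figure D2:**
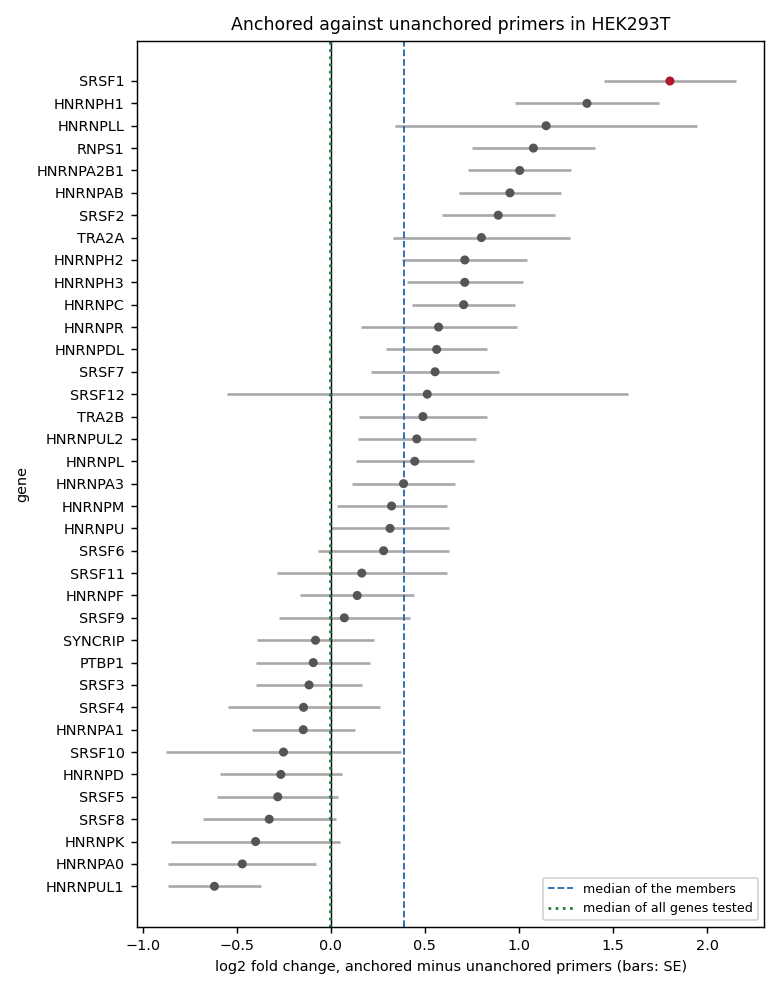
Log2 fold change of each member between anchored and unanchored primers in HEK293T, with its SE as a bar; the gene in red (SRSF1) passed the test, the dashed line is the median of the members (0.39) and the dotted line that of all genes tested (-0.0017). Of the 37 points, 25 lie to the right of 0.

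In the A/B family, the best known hnRNPs and mostly repressors of exon use, none of 4 members passed in edgeR (1 at an unadjusted p under 0.05, and 1 with DESeq2), and their log2 fold changes ran from -0.47 to 1.00. HNRNPA2B1, which also sorts RNAs for transport, stood at 288, 251 and 236 CPM in T12, T18 and T30 and at 508, 555 and 684 CPM in T18V, T18VN and T18VNN. Its classes did not overlap, and its log2 fold change was 1.00 (SE 0.27, edgeR adjusted p = 0.100). HNRNPA0 stood at 9505, 12540 and 16140 CPM with unanchored and at 4572, 11470 and 15280 CPM with anchored primers. Here the classes overlapped, T18V was the lowest library and T30 the highest, and the log2 fold change was -0.47 (SE 0.39, edgeR adjusted p = 0.636), or -0.14 without T18V. HNRNPA1, an antagonist of SRSF1 in splice site choice, overlapped between classes (928 to 1428 CPM over HEK293T), and HNRNPA3 was higher in all anchored libraries (352 to 431 CPM) than in the unanchored ones (235 to 269 CPM) without passing the test.

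The related AB and D genes code for proteins that bind AU-rich RNA. HNRNPAB stood at 195 to 224 CPM with unanchored and 398 to 484 CPM with anchored primers, and HNRNPDL at 293, 305 and 249 CPM in T12, T18 and T30 and 513, 442 and 451 CPM in T18V, T18VN and T18VNN. Neither range overlapped between classes, while that of HNRNPD, the decay factor AUF1, did. HNRNPD stood at 279, 248 and 274 CPM in T12, T18 and T30 and at 196, 364 and 191 CPM in T18V, T18VN and T18VNN. None of the 3 passed in edgeR, where HNRNPAB had the smallest adjusted p (0.115) and was the 1 member under 0.05 before adjustment, nor with DESeq2. HNRNPC, which binds U-rich stretches and keeps Alu elements from being spliced as exons, likewise did not overlap between classes (408 to 453 and 632 to 889 CPM) and did not pass (edgeR adjusted p = 0.244).

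All 4 F/H genes, whose proteins bind runs of G, had log2 fold changes above 0, from 0.14 to 1.36, and none passed in edgeR (2 at an unadjusted p under 0.05). HNRNPH1 passed with DESeq2 (adjusted p = 0.0422) and in edgeR with no filter on low counts (adjusted p = 0.0387). HNRNPH1 stood at 24.8, 33.7 and 54.6 CPM in T12, T18 and T30 and at 126, 87.9 and 115 CPM in T18V, T18VN and T18VNN. Its classes were apart, with T12 lowest and T18V highest, and its log2 fold change was 1.36 (SE 0.39, edgeR adjusted p = 0.112). HNRNPH2 (33.4 to 38.5 against 51.6 to 75.1 CPM) and HNRNPH3 (59.1 to 78.7 against 111 to 157 CPM) were also apart, and HNRNPF overlapped, at 118, 122 and 135 CPM with unanchored and 135, 195 and 137 CPM with anchored primers.

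HNRNPK, a KH domain protein that binds C-rich RNA (chr9:86582998-86595697, hg19), stood at 208, 206 and 634 CPM in T12, T18 and T30 and at 224, 313 and 370 CPM in T18V, T18VN and T18VNN. T30 was the highest library, and the classes overlapped. Its log2 fold change was -0.40 (SE 0.45, edgeR adjusted p = 0.739) and turned to 0.39 when T30 was left out.

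In the L and PTB group, whose proteins bind CA repeats or pyrimidine tracts, HNRNPL was apart between classes (106 to 180 against 209 to 214 CPM) and PTBP1 overlapped (113 to 178 against 148 to 156 CPM). HNRNPLL stood at 6.43, 5.58 and 2.26 CPM in T12, T18 and T30 and at 2.85, 9.37 and 23.6 CPM in T18V, T18VN and T18VNN. The highest library, T18VNN, carried the difference: the log2 fold change was 1.14 (SE 0.80, edgeR adjusted p = 0.549), or 0.16 without T18VNN. The ratio of its highest to its lowest HEK293T level was 10.5, resting on 85 and 5 reads.

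HNRNPM, a splicing regulator of epithelial to mesenchymal switching, and the R/Q genes HNRNPR and SYNCRIP overlapped between classes. SYNCRIP, a cytoplasmic regulator of mRNA stability, stood at 804, 719 and 379 CPM in T12, T18 and T30 and at 608, 675 and 727 CPM in T18V, T18VN and T18VNN. HNRNPM stood at 641, 611 and 404 CPM and at 936, 627 and 757 CPM in the same order. T30 was the lowest library for both genes.

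The U group includes HNRNPU, also known as scaffold attachment factor A, a large protein of the nuclear matrix. HNRNPUL1 stood at 4242, 3446 and 3357 CPM in T12, T18 and T30 and at 2315, 2982 and 2792 CPM in T18V, T18VN and T18VNN. It was the member whose anchored libraries all lay below the unanchored ones, with a log2 fold change of -0.62 (SE 0.25, edgeR adjusted p = 0.258) that was 0.44 when scaled to the library totals. HNRNPUL2 lay apart in the other direction, at 55.4, 63.8 and 67.2 CPM against 84.3, 115 and 89.3 CPM, and HNRNPU, with 1309 to 1569 against 1247 to 2730 CPM, overlapped.

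Among the 9 SR proteins proper, SRSF1 was the 1 that passed. SRSF2, a protein of nuclear speckles, was apart between classes (164 to 168 against 247 to 426 CPM) with a log2 fold change of 0.89 (SE 0.30, edgeR adjusted p = 0.174), and SRSF7 was apart too (51.4 to 60.8 against 63.7 to 119 CPM). SRSF8, an SRSF2 relative, stood at 49, 40.8 and 53.3 CPM with unanchored and at 49.1, 48.9 and 30.3 CPM with anchored primers. SRSF5, an SR protein known from growth-stimulated liver cells, stood at 110, 75.2 and 66.3 CPM and at 72.9, 70.7 and 88.1 CPM in the same order. Both overlapped between classes, with log2 fold changes of -0.33 (SE 0.35, edgeR adjusted p = 0.731) and -0.28 (SE 0.32, edgeR adjusted p = 0.743). SRSF3, SRSF4, SRSF6 and SRSF9 overlapped as well, at 237 to 320, 43.2 to 103, 157 to 371 and 121 to 267 CPM over the HEK293T libraries.

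Of the 6 SR-like genes none passed in edgeR (1 at an unadjusted p under 0.05, RNPS1) or with DESeq2. RNPS1 (chr16:2303117-2318413, hg19) stood at 951, 1916 and 1969 CPM in T12, T18 and T30 and at 3822, 3337 and 4414 CPM in T18V, T18VN and T18VNN. Its classes were apart, T12 was the lowest library, and the log2 fold change was 1.08 (SE 0.33, edgeR adjusted p = 0.136). TRA2B, the human homologue of the fly sex determination factor transformer 2, was apart by less than 1 CPM at its nearest values (40.2 to 55.6 against 55.9 to 92.4 CPM). TRA2A, its paralogue, overlapped, at 12.6, 21.2 and 40.2 CPM in T12, T18 and T30 and 43.8, 38.2 and 63.7 CPM in T18V, T18VN and T18VNN, as did SRSF12. SRSF11 stood at 93.7, 354 and 127 CPM with unanchored and 190, 267 and 271 CPM with anchored primers, and SRSF10 at 9.49, 31 and 9.48 CPM and at 18.1, 6.92 and 22.8 CPM. Both overlapped, with T18 the highest library in each.

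Summed, the SR genes took 0.215, 0.355 and 0.344% of the gene reads in T12, T18 and T30 and 0.562, 0.563 and 0.656% in T18V, T18VN and T18VNN. The class means were 0.304 ± 0.0775 and 0.594 ± 0.0538% (SD, n = 3 libraries each), and the classes did not overlap. RNPS1 alone held 0.0951 to 0.197% and 0.334 to 0.441% of these reads, and without it the means were 0.143 ± 0.0216 and 0.208 ± 0.0255%. The hnRNP genes took 2.02, 2.27 and 2.62% with unanchored and 1.52, 2.42 and 2.71% with anchored primers, with means of 2.30 ± 0.302 and 2.22 ± 0.618% that differed by less than the spread between libraries. Without HNRNPA0 and HNRNPUL1, the hnRNP genes with most reads, the sums were 0.659 ± 0.0164 and 0.904 ± 0.0678%, and the classes did not overlap (0.641 to 0.671 against 0.836 to 0.971%). Both sums without named genes were chosen after seeing the data, and no test was made of a sum over members.

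**Figure D3:**
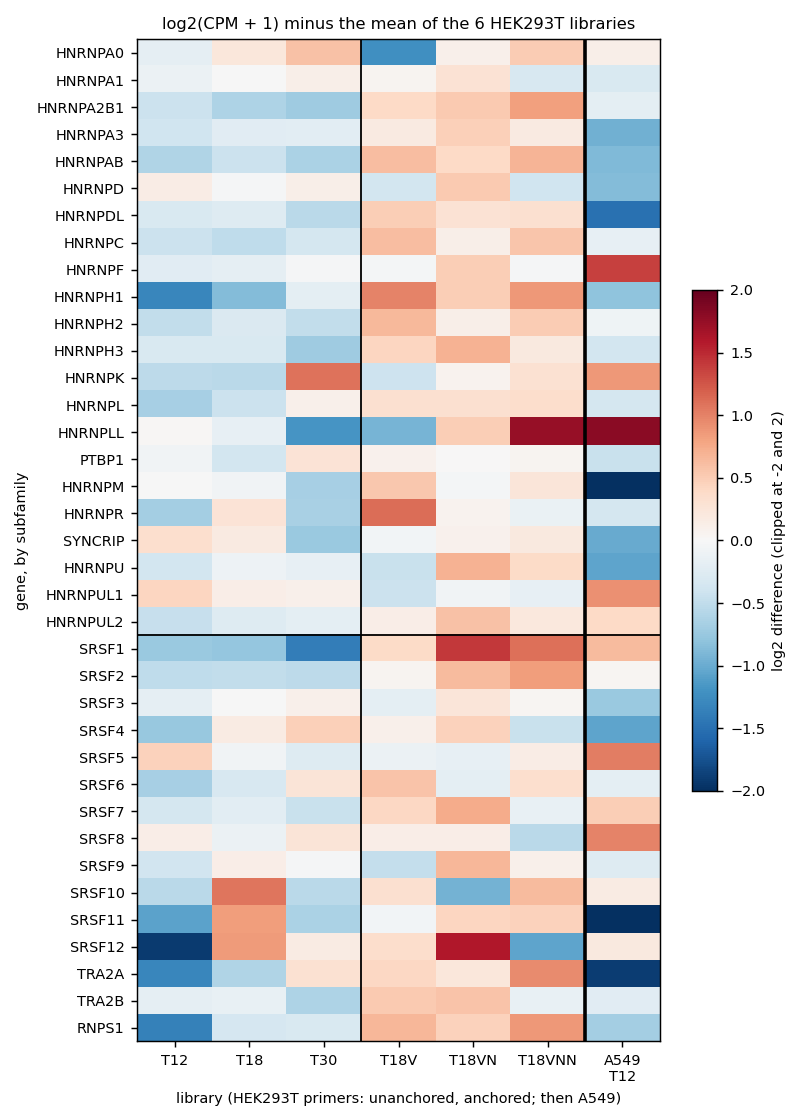
Level of each gene, as log2(CPM + 1) minus its mean over the 6 HEK293T libraries, in the unanchored (T12, T18, T30) and anchored (T18V, T18VN, T18VNN) libraries and in A549; the colour scale ends at -2 and 2. SRSF1, HNRNPH1 and RNPS1 are below their mean in T12, T18 and T30 and above it in T18V, T18VN and T18VNN, and HNRNPM is low in A549 (90.8 CPM).

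Single steps between primers were described at 2-fold, with 20 reads or more in the higher of the compared libraries, without a test since each primer had 1 library. From T12 to T18, 4 of 37 members were at least 2-fold higher (16.2% of all genes) and none was lower (13%). These were SRSF10, SRSF11, SRSF12 and RNPS1; SRSF11, an SR-like protein also called p54, went from 93.7 to 354 CPM. From T18 to T30, HNRNPK was higher (9.44% of all genes) and HNRNPLL, SRSF10 and SRSF11 were lower (18.3%), with SRSF11 back at 127 CPM. T30 against T12 gave 5 higher and 2 lower of 36 members (14.9 and 22.1% of all genes), HNRNPK at 3.05-fold among the higher ones and SYNCRIP among the lower.

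Adding V to the 18 T left 6 members at least 2-fold higher (16.1% of all genes) and 1 lower (16.3%). The higher ones were HNRNPA2B1, HNRNPAB, HNRNPC, HNRNPH1, SRSF1 and TRA2A, and the lower one was HNRNPA0. T18VN against T18V gave 6 higher and 2 lower (19.6 and 8.95% of all genes), with HNRNPA0 among the higher, so that its T18VN level (11470 CPM) was near that of T18 (12540 CPM). T18VNN against T18VN gave 2 higher and 1 lower (10.4 and 13.2% of all genes), and T18VNN against T18V 2 higher and 1 lower of 36 (16.4 and 9.58%). Neighbouring steps share a library, so their values are not independent.

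The count tables list several transcript entries for most members, and a read is counted for each entry it overlaps. Of the 37 members, 5 had 1 entry and 32 had more; in 28 of these every entry was within 10% of the kept one, and in 4 (HNRNPA1, HNRNPA3, SYNCRIP and SRSF10, named after their values were seen) at least 1 entry was not. For HNRNPDL, SRSF3, SRSF6 and SRSF10 the kept entry was itself a noncoding RefSeq entry. Of these genes, only SRSF10 had an entry more than 10% below the kept one in reads, so only its level depended on that choice by more than this. A noncoding entry of HNRNPA1 with 1292 nt held 16.9, 44.7 and 47.9% as many reads as the kept coding entry in T12, T18 and T30, and 13.6, 32.8 and 55.5% in T18V, T18VN and T18VNN. This ratio differed several-fold between libraries although the kept entry's CPM ranged from 928 to 1428, and it overlapped between classes. In A549 T12 it was 19.1%, against 16.9% in HEK293T T12. The noncoding entry ends at chr12:54680872 (hg19), beyond the end of the kept entry at 54679030. Its reads need not all be among those of the kept entry, so no interval is given for this ratio.

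For SYNCRIP, an entry of 3194 nt, shorter than the kept 7328 nt entry, held 49.9, 44.2 and 23.3% of its reads in T12, T18 and T30 and 47.3, 38.7 and 42% in T18V, T18VN and T18VNN. T30 stood apart from the other libraries as it did for the gene's level. A549 T12, at 49.8%, had the value of HEK293T T12. The HNRNPA3 entry of 3092 nt ran from 15.6% (T18V) to 29.5% (T18VNN). SRSF10's second entry, a coding one, ran from 38.5% (T18) to 100% on 21 to 161 reads of the kept noncoding entry. Since entries share sequence, these ratios do not separate isoforms.

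**Figure D4:**
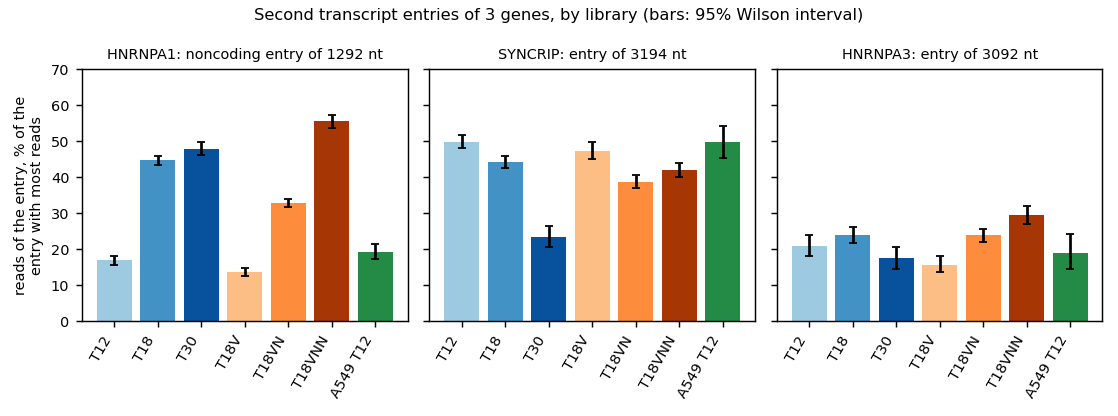
Reads on a second transcript entry of HNRNPA1, SYNCRIP and HNRNPA3, as a percentage of the entry with most reads, in the 6 HEK293T libraries and A549 T12. Bars are 95% Wilson intervals, which do not hold for HNRNPA1, whose second entry extends beyond the kept one. The HNRNPA1 entry ranges from 13.6% in T18V to 55.5% in T18VNN, and the SYNCRIP entry is lowest in T30 (23.3%).

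Some members share reads with other loci. HNRNPH2 and HNRNPUL2 lie within the readthrough entries RPL36A-HNRNPH2 and HNRNPUL2-BSCL2, so reads in the shared part can come from either. HNRNPAB, HNRNPH3, HNRNPK, SRSF5 and SRSF9 overlap PHYKPL, PBLD, RMI1, LOC100289511 and GATC, and no use of strand is stated. The counts of all these members are therefore uncertain. Small RNA genes lie within HNRNPA3, HNRNPK, HNRNPU, PTBP1 and SRSF2. HNRNPA1 has near-identical copies, of which HNRNPA1L2 held 71 to 342 reads and HNRNPA1P10 34 to 139 reads per library, against 1406 to 6397 for HNRNPA1.

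A549 and HEK293T were compared with the T12 primer. Counts came from 1 library per cell line, so the difference has no replicate check and no p-value, and intervals are for counting error. Of 36 members with 20 reads or more in either library, 4 were at least 2-fold higher in A549 (31% of 10145 genes) and 5 at least 2-fold lower (29.2%), which left 27 within 2-fold, where 60.2% of all genes were 2-fold apart in either direction. The median log2 ratio was 0.28 for the members and 0.02 for all genes. Against the range of the 6 HEK293T libraries, 5 members lay above in A549 (33.8% of all genes), 12 below (28.8%) and 19 inside.

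HNRNPM (chr19:8509803-8554002, hg19) had the lowest ratio. It stood at 90.8 CPM in A549 T12 and at 641 CPM in HEK293T T12, with 404 to 936 CPM over the 6 HEK293T libraries, so A549 was below all of them. The HEK293T T12 level was 7.06-fold higher (95% interval 5.94 to 8.47), from 2094 reads in HEK293T and 136 in A549.

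SRSF11 stood at 30.0 CPM in A549 T12 against 93.7 CPM in HEK293T T12 (93.7 to 354 CPM over HEK293T), 3.12-fold higher in HEK293T T12 (2.28 to 4.37). SYNCRIP stood at 316 against 804 CPM, 2.54-fold higher in HEK293T (2.30 to 2.81). All HEK293T libraries were above A549 for both genes. HNRNPDL, at 129 against 293 CPM, and HNRNPD, at 138 against 279 CPM, were 2.28-fold and 2.02-fold higher in HEK293T T12 and also outside the HEK293T ranges.

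Among the members higher in A549, HNRNPF (chr10:43881065-43892279, hg19) stood at 360 CPM against 118 CPM in HEK293T T12, 3.04-fold higher (2.67 to 3.48). It was above all 6 HEK293T libraries, whose highest value was 195 CPM. HNRNPK stood at 546 against 208 CPM, 2.63-fold higher (2.37 to 2.91), and SRSF1 at 211 against 81.5 CPM, 2.59-fold higher (2.19 to 3.06). Both lay inside the HEK293T range, since T30 gave 634 CPM for HNRNPK and the anchored libraries gave 178 to 363 CPM for SRSF1. The fourth, HNRNPLL, was at 24.7 against 6.43 CPM on 37 and 21 reads, 3.84-fold higher (2.19 to 6.91) and just above the highest HEK293T library (23.6 CPM).

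HNRNPUL2 (102 against 55.4 CPM, 1.84-fold) and SRSF8 (89.4 against 49 CPM, 1.83-fold) came next among members with at least 50 reads. SRSF8 was above all HEK293T libraries and HNRNPUL2 inside their range. HNRNPUL1 and SRSF5 were also above the range, at 5914 and 162 CPM. Below the range, beside the 5 members at least 2-fold lower, lay HNRNPU, HNRNPA3, HNRNPAB and PTBP1, at 810, 159.5, 163.5 and 107.5 CPM. SRSF3, SRSF4 and TRA2A were below it too, at 160.9, 34.7 and 8.01 CPM. Members inside it included HNRNPA0 at 11710 CPM, HNRNPA2B1 at 336 CPM, HNRNPH1 at 35.4 CPM, RNPS1 at 1512 CPM and SRSF10 at 16.0 CPM. SRSF12, with 7 reads in A549 and 1 in HEK293T T12, was too thinly covered to compare.

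**Figure D5:**
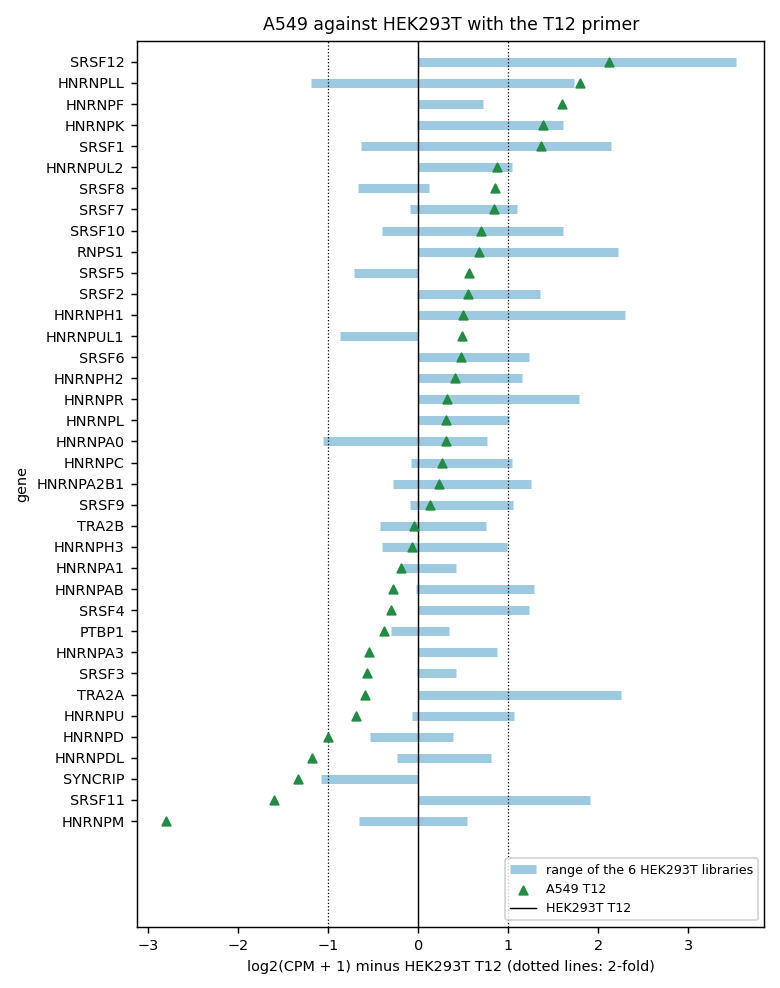
Log2(CPM + 1) of each gene in A549 T12 (triangles) minus that in HEK293T T12 (vertical line at 0), with the range of the 6 HEK293T libraries as bars and dotted lines at 2-fold. HNRNPM lies far to the left (90.8 against 641 CPM), and HNRNPF lies to the right of its bar (360 against 118 CPM).

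Other genes of the splicing machinery were read from 4 lists of 113 genes: 36 other RNA-binding splicing regulators, 16 SR-related proteins, SR kinases and the SR importer, 45 core spliceosome genes, and 16 genes of the exon junction complex and nonsense-mediated decay. Of 111 tested between primer classes, 2 passed in edgeR (1.35% of all genes did), both higher with anchored primers. TXNL4A, a U5 snRNP protein, stood at 136, 147 and 156 CPM with unanchored and 701, 385 and 494 CPM with anchored primers (log2 fold change 1.67, SE 0.32, edgeR adjusted p = 0.0297). ILF2 stood at 53.3, 82.9 and 73.1 CPM and at 234, 222 and 236 CPM (log2 fold change 1.55, SE 0.31, edgeR adjusted p = 0.0387). Both were apart between classes. The ILF2 call ended when any library was left out (edgeR adjusted p 0.0806 to 0.144), and that of TXNL4A when any but T18VN was (edgeR adjusted p 0.0652 to 0.103, and 0.0352 without T18VN, where U2AF2 passed as lower). The median log2 fold change of the 111 genes was 0.10, with -0.12 for the core spliceosome and 0.37 for the SR-related genes and kinases.

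Between the cell lines, 15 of 108 of these genes were at least 2-fold higher in A549 T12 (31% of all genes) and 35 lower (29.2%), with a median log2 ratio of -0.50 against 0.02 for all genes. PTBP3, a PTBP1 paralogue, stood at 499 CPM in A549 against 45.9 CPM in HEK293T T12, and RBFOX2, a regulator that binds GCAUG, at 123.5 against 23.6 CPM. For RBFOX2 the HEK293T libraries T18V, T18VN and T18VNN gave 133.1, 116.3 and 115.9 CPM, so A549 lay inside the HEK293T range. UPF3A, a nonsense-mediated decay factor, stood at 18.7 against 3.37 CPM, on only 28 and 11 reads. Lower in A549 were SNRPD1, a core Sm protein, at 1001 against 10650 CPM, RBM10, a regulator of exon skipping, at 8.68 against 64.6 CPM, and MBNL3, a muscleblind protein, with 0 reads (a level of up to 2.00 CPM is allowed) against 11.6 CPM.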

How the data were processed

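CLT-seq libraries of HEK293T (6 primers) and A549 (T12) were analysed. The authors deposited a count of fragments per RefSeq transcript, an FPM signal (the count scaled to the library total) and FPKM, per the file headers; body coverage over 100 percentiles was deposited as a signal too. The submitters' processing notes name FastQC 0.11.8, cutadapt 2.10, Trimmomatic 0.39, HISAT2 2.2.1, SAMtools and hg19 (GRCh37). The counter, annotation release and treatment of multiply mapped reads are not given in the sources used here. Of 61177 transcript entries, 60133 (98.3%) matched a RefSeq symbol and 1044 were left out; the entry with most reads was kept per gene. The library total was recovered as count divided by FPM.

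Groups were taken from titles. The classes were compared over all genes with edgeR 4.0.16 (R 4.3.3) by the quasi-likelihood test after filterByExpr and TMM, with Benjamini-Hochberg adjustment over all genes, after the script was tested on simulated data. Cell lines were compared as log2(CPM + 1), with exact 95% intervals of count ratios. Alternatives included DESeq2 1.42.0, other scalings, filters and transcript choices, and leaving out each library. The T12 libraries are labelled as biological replicates, but 1 per line had counts used here, and for the other primers nothing says that libraries came from separate cultures. The other 2 libraries were not used here, nor was the T18VN coverage.

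The members and the lists were chosen with earlier results of these data known. Values in every library were given for members with an adjusted p under 0.05, the 5 highest and 5 lowest log2 fold changes, the 5 highest and 5 lowest A549 ratios where either library had 50 reads or more, the 3 highest and 3 lowest median FPKM, and the 3 largest ratios of highest to lowest HEK293T level; other members are named by subfamily whatever their values, and of the other lists genes past the threshold, at most 3 highest and 3 lowest. Transcript ends and A runs were read from GENCODE 29 on GRCh38, matched by the RefSeq identifier of the kept entry and by length within 20%. Gene coordinates are those of the files.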

Additional observations from a re-analysis of the deposited data

Results flagged for a closer look

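In 2 of the 37 members 1 HEK293T library stood apart from the other 5 by Dixon's criterion. HNRNPF had 195 CPM in T18VN, a gap of 0.762 of its range, and HNRNPLL had 23.6 CPM in T18VNN, a gap of 0.667 of its range. The 6 libraries were made with different primers and are not replicates of 1 condition, and about 1 in 20 groups meets the criterion by chance.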

How the results depend on the processing

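No paired analysis was possible because each HEK293T primer had 1 library with counts, and for T12 counts came from HEK293T replicate 1 and A549 replicate 2. Between the primer classes, 581 of 16404 genes passed with DESeq2, with 3 of 37 members (SRSF1, HNRNPH1 and HNRNPA2B1) and 8 other splicing genes. In edgeR with no filter on low counts, 556 of 16404 genes passed, with 2 members (SRSF1 and HNRNPH1) and 7 other splicing genes. Scaled to library totals, 2257 of 11244 genes (20.1%) passed, with 20 members and 35 other splicing genes. With each library left out in turn, 46 to 111 genes, 0 to 1 members and 0 to 2 other splicing genes passed in edgeR; none of these counts exceeded that with 6 libraries. Scaling to library totals moved the median of all genes by construction to 1.08, and with it log2 fold changes below 0 turned to 0.59 for HNRNPA0, 0.97 for HNRNPA1, 0.81 for HNRNPD, 0.86 for HNRNPK, 1.07 for PTBP1, 0.91 for SYNCRIP, 0.44 for HNRNPUL1, 0.97 for SRSF3, 1.01 for SRSF4, 0.77 for SRSF5, 0.82 for SRSF8 and 0.72 for SRSF10. With the longest entry SRSF10 was at 0.53. Leaving out 1 library changed the sign for HNRNPF (-0.058 to 0.22), HNRNPK (-0.69 to 0.39), PTBP1 (-0.25 to 0.11), SYNCRIP (-0.34 to 0.092), SRSF4 (-0.45 to 0.15), SRSF9 (-0.26 to 0.27), SRSF10 (-0.63 to 0.57), SRSF11 (-0.18 to 0.95) and SRSF12 (-0.54 to 1.36); none of these passed, and the cause was not tested. The SR share difference of 0.289 percentage points, anchored minus unanchored, was 0.134 of the library total and 0.0645 without RNPS1. The hnRNP difference of -0.0831 was 0.296 of the library total and ran from -0.3297 to 0.2633 with 1 library left out. The A549 count of 9 members at 2-fold ran from 7 to 10 over its alternatives. SRSF10, SRSF12 and HNRNPLL were limited by depth.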
